A study of Sus scrofa with 6 samples.

Results

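The 10 genes described here encode the contractile and cytoskeletal proteins of smooth muscle. They are the actins ACTA2 and ACTG2, the myosin light chain MYL9 and its kinase MYLK, the actin-binding proteins TPM2, CNN1 and TAGLN, the intermediate filament proteins DES and SYNM, and the Z-line protein PDLIM3. They were chosen by name, with earlier results of these data known, so their counts beside all probe sets are descriptions. Every probe set was taken whose platform annotation gives a single gene symbol that is one of the 10. This found 15 probe sets of 23999 on the array and 10 genes of the 6567 that carry a single symbol. The arrays measured RNA from pig (Sus scrofa) ovary and from tissue labelled myometrium, each from sows that were not pregnant, early pregnant or late pregnant, with 1 array for each tissue and stage and 6 arrays in all. The design text counts 9 pigs, 3 at each stage, and the sources used here do not say whether RNA of several pigs was pooled for an array. Nor do they give breed, age or day of pregnancy. No group had a replicate array, so a difference between 2 arrays has no replicate check.

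In smooth muscle, calcium bound to calmodulin activates myosin light chain kinase, which phosphorylates the regulatory light chain and lets myosin pull on actin filaments. Tropomyosin, calponin and transgelin lie along those filaments, while desmin and synemin filaments tie the dense bodies, the smooth muscle counterpart of Z lines, to each other and to the membrane. The myometrium is the muscular wall of the uterus and is known for the growth of its muscle cells in pregnancy. In the ovary, smooth muscle surrounds arteries and also lies in the outer theca of follicles and in the stroma.

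The signals are linear intensities that the authors had scaled to a common level, with a trimmed mean of 500.1 on every array. A floor of 81.7, the 40th percentile of all signals, marked where a signal was treated as not measured, and 57.4% to 61.6% of probe sets lay above it on an array. A ratio with an array under the floor is a bound, written as "at least". The tissue labelled myometrium carried markers of other tissue. Its summed signal of 11 uterine epithelium markers was 42464 to 53576, against 917.5 to 1497 in ovary. The summed signal of 6 placental markers on its arrays was 1473 without pregnancy, 59461 in early and 72603 in late pregnancy, against 616.5 to 3028 in ovary. The sum of 10 steroidogenic cell markers was 94167 to 111931 in ovary, against 1457 to 13907 in the tissue labelled myometrium. Of 12 striated muscle markers on the array, 0 were above the floor on all 6 arrays and 6 were above it on none. In such bulk samples, fewer cells of a type and less RNA per cell cannot be told apart, and the part of other tissue in the results that follow was not tested.

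Most of the 10 genes shared a profile over the 6 arrays. The early pregnant ovary array gave the highest signal for 9 of the 10 genes, where 13.8% of the 15882 probe sets that exceeded the floor on 2 or more arrays had their highest signal there. ACTA2 was highest on the non-pregnant ovary array (15.9%). The lowest signal fell on the non-pregnant myometrium array for 7 genes (20.3% of all probe sets) and on the early pregnant myometrium array for 3 genes, DES, SYNM and PDLIM3 (27.5%). These 2 shares count a probe set on each array that ties for lowest, as at the floor, which makes them larger. With each gene centred on its own mean log2 signal, the mean of the 10 was 0.03, 1.32 and 0.23 on the non-pregnant, early and late pregnant ovary arrays. On the myometrium arrays it was -1.11, -0.46 and -0.02 in the same order of stages. Over the 45 pairs of these genes, Pearson's r across the 6 arrays ran from 0.37 to 0.96 with a median of 0.75, and 0 pairs were below 0. The arrays are shared by every pair, so these values describe 6 points and no more.

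**Figure D1:**
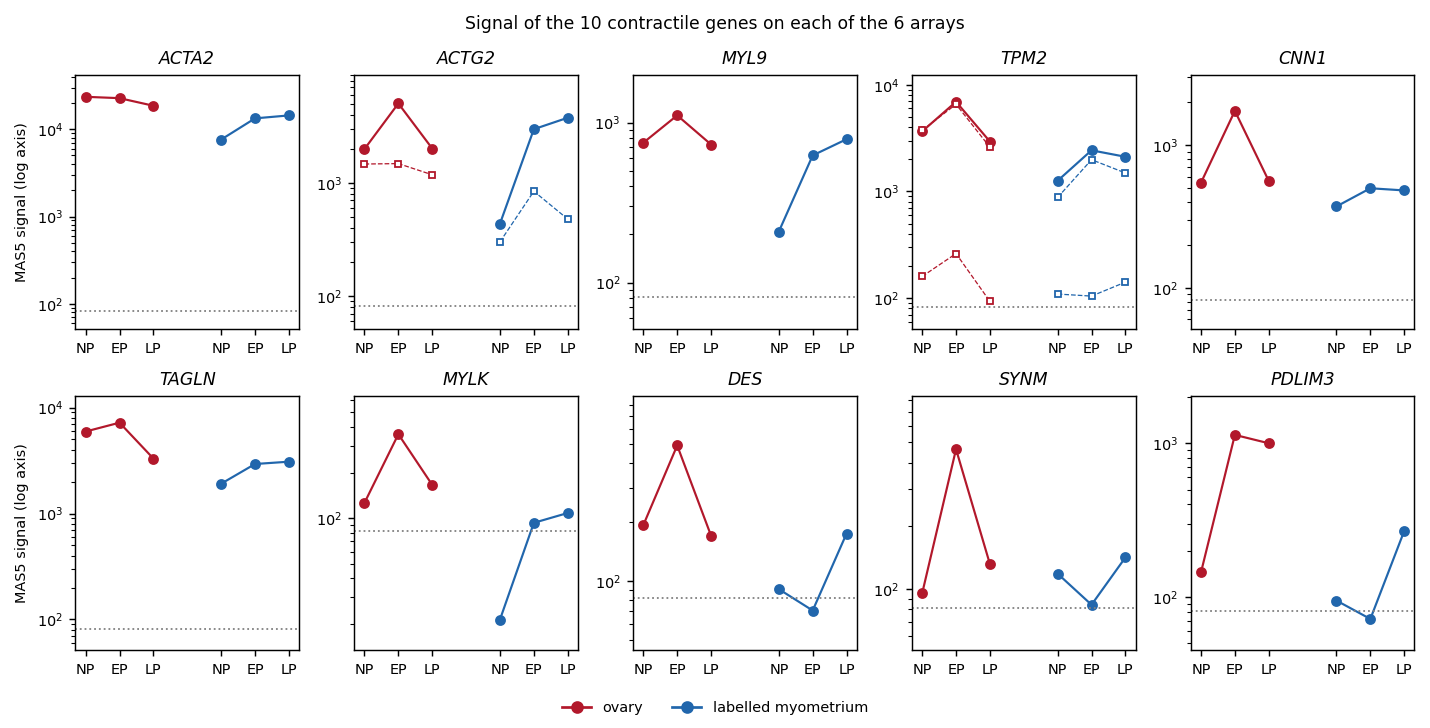
Signal of each gene on the 6 arrays (log axis, linear MAS5 signal), with ovary left of tissue labelled myometrium and the stages in order within each. Filled circles are the brightest probe set, open squares the further probe sets of a gene, and the dotted line the floor of 81.7; the early pregnant ovary array is the highest for every gene except ACTA2.

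Smooth muscle alpha actin, ACTA2, is the main actin of vascular smooth muscle. The ovary arrays gave 23509 in non-pregnant, 22689 in early pregnant and 18571 in late pregnant sows. The myometrium arrays gave 7613, 13313 and 14389 at the same stages. All 3 ovary arrays lay above all 3 myometrium arrays, with means of 21590 ± 2646 in ovary and 11772 ± 3642 in the tissue labelled myometrium (SD over the 3 stages, n = 3 arrays each). In ovary the stages differed by at most 0.34 on the log2 scale, and the early pregnant array was within 0.05 of the non-pregnant one. In the tissue labelled myometrium, ACTA2 was 1.75-fold higher on the early pregnant array and 1.89-fold higher on the late pregnant array than on the non-pregnant one. The early and late pregnant myometrium arrays differed by 0.11, less than the 0.31 that is the median gap between the ratios of 2 probe sets of 1 gene on those arrays. That gap, taken over 1082 genes with several probe sets, is the only technical yardstick here; its median was 0.22 to 0.34 and its 90th percentile 0.61 to 0.99 over the 9 comparisons of arrays.

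Gamma actin of visceral smooth muscle, ACTG2, is the actin of gut, bladder and uterine smooth muscle. Its brightest probe set gave 1994, 5036 and 2014 on the non-pregnant, early and late pregnant ovary arrays, and 437, 2984 and 3766 on the myometrium arrays. The non-pregnant myometrium array stood far below the other 5, and the tissues overlapped. Against the non-pregnant myometrium array, the early pregnant one was 6.83-fold and the late pregnant one 8.62-fold higher, or 2.77 and 3.11 on the log2 scale. ACTA2 had 0.81 and 0.92 in the same 2 comparisons. Of 16013 probe sets measured there, 250 had a higher ratio than ACTG2 for late pregnant over non-pregnant myometrium. The second ACTG2 probe set gave 1469, 1482 and 1181 in ovary and 302, 845 and 479.5 in the tissue labelled myometrium. Against the non-pregnant myometrium array it was 2.80-fold higher in early and 1.59-fold higher in late pregnancy, well under the brightest probe set. In late pregnancy the log2 ratios were 0.67 for the second and 3.11 for the brightest, a gap above the 90th percentile of 0.98 for this comparison. It too was lowest on the non-pregnant myometrium array, but it did not carry the early pregnant peak in ovary, with a log2 ratio of 0.01 against 1.34 for the brightest probe set. That gap is above the 90th percentile of 0.68 for this comparison. In late pregnancy the probe sets went opposite ways between tissues, with log2 ratios of ovary over myometrium of -0.90 for the brightest and 1.30 for the second. Actin genes are close in sequence, and cross-hybridisation between isoforms was not tested.

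The regulatory light chain gene MYL9 encodes the chain whose phosphorylation switches smooth muscle myosin on. Its probe set gave 748, 1109 and 729 on the ovary arrays and 208, 623 and 787 on the myometrium arrays, in the order of the stages. The order resembled that of ACTG2, with which its Pearson's r over the 6 arrays was 0.95, and again the non-pregnant myometrium array stood lowest. MYL9 was 2.99-fold higher on the early pregnant and 3.78-fold higher on the late pregnant than on the non-pregnant myometrium array. Between the late and the non-pregnant ovary array the log2 ratio was -0.04, which turned to 0.11 with each array centred on its median, so these 2 arrays have no order for MYL9. MYLK, the kinase itself, gave 126, 359 and 166 in ovary and 21.3, 93.0 and 108 in the tissue labelled myometrium. The non-pregnant myometrium array was under the floor. All 3 ovary arrays were above all 3 myometrium arrays for MYLK, and the early pregnant ovary array was 2.85-fold above the non-pregnant one.

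TPM2, beta tropomyosin, lies in the groove of the actin filament. Its brightest probe set gave 3658, 6934 and 2938.5 in ovary and 1261, 2431 and 2115 in the tissue labelled myometrium. The second probe set gave 3738, 6567 and 2599.9 in ovary and 879.5, 1986 and 1491 in the tissue labelled myometrium. Both placed all ovary arrays above all myometrium arrays and had their peak in early pregnancy in both tissues. The log2 ratio of early pregnant over non-pregnant was 0.92 in ovary and 0.95 in the tissue labelled myometrium for the brightest probe set, a difference of 0.02 between the tissues. The third probe set, nearer the floor, gave 159.7, 262 and 93.2 in ovary and 109, 104.5 and 141 in the tissue labelled myometrium, with the early pregnant peak in ovary alone. The fourth was under the floor on every array.

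CNN1, calponin, binds actin and slows the myosin motor. Its probe set gave 546, 1746 and 563 in ovary and 372, 499.5 and 482 in the tissue labelled myometrium. The early pregnant ovary array stood apart from the other 5, at 3.20-fold the non-pregnant ovary array. In the tissue labelled myometrium the stages of CNN1 spanned 0.42 on the log2 scale, where the median gap between probe sets was 0.34. TAGLN, transgelin or SM22, an early marker of the smooth muscle lineage, gave 5947, 7208 and 3305 in ovary and 1912, 2935 and 3086 in the tissue labelled myometrium. All ovary arrays were above all myometrium arrays, though the late pregnant pair differed by only 0.10 on the log2 scale. TAGLN was the gene of the 10 with the lowest late pregnant over non-pregnant ratio in ovary, at -0.85, while in the tissue labelled myometrium this ratio was 0.69.

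Desmin, DES, is the intermediate filament protein of muscle cells, and SYNM encodes synemin, which joins desmin filaments. The brighter DES probe set gave 193, 493.5 and 170.1 in ovary and 90.6, 70.4 and 175 in the tissue labelled myometrium, where the early pregnant array was under the floor. A second DES probe set was under the floor on every array. SYNM gave 95.4, 464 and 132 in ovary and 118, 84.2 and 141.5 in the tissue labelled myometrium. For both genes the early pregnant ovary array was the highest of the 6 and the early pregnant myometrium array the lowest, and the other 4 arrays lay between. The early pregnant ovary array was 2.56-fold above the non-pregnant one for DES and 4.86-fold above it for SYNM. PDLIM3, a PDZ and LIM domain protein that binds alpha actinin at the Z line of striated muscle, gave 145, 1133 and 999.9 in ovary and 94.8, 72.0 and 269 in the tissue labelled myometrium. Its late pregnant ovary array was near the early pregnant one (log2 ratio -0.18) and 6.91-fold above the non-pregnant one, where the highest of the other 9 genes, SYNM, was at 1.38-fold.

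In ovary, the early pregnant array was set against the non-pregnant one to ask which genes differ early in pregnancy. Of the 10 genes, 6 were higher by 2-fold or more and 0 lower, where 2.45% of the 15237 probe sets measured were higher and 2.15% lower. The 6 were PDLIM3, SYNM, CNN1, MYLK, DES and ACTG2, with log2 ratios of 2.97, 2.28, 1.68, 1.51, 1.36 and 1.34. The second ACTG2 probe set was at 0.01. PDLIM3 had 12 probe sets above it in this ratio, and SYNM had 34. The median over the 10 genes was 1.35, against -0.02 over all probe sets. Only ACTA2 had a ratio below 0, at -0.05, and it became 0.14 under quantile normalization. Of 11 measured myosin and phosphatase genes 0 reached 2-fold in either direction (median 0.01), and so did 0 of 15 thin filament genes (median -0.11). Of 20 adhesion plaque, Z-line and intermediate filament genes 2 were higher (median 0.21), and of 11 uterine contraction genes 1 was higher (median 0.24). Of 5 pericyte markers, 0 reached 2-fold (median 0.20), and of 10 endothelial markers 1 was higher (median 0.14). Of 8 fibroblast and matrix markers, 2 were higher (median 0.58). Of 5 placental markers, 3 were higher (median 1.35), and their summed signal on the early pregnant ovary array was 3028, against 1331 on the non-pregnant one. All 7 measured leukocyte markers were below 0, and 3 were lower by 2-fold or more (median -0.65). The GAPDH control's 3′ signal over its 5′ signal, a measure of RNA and labelling quality, was 1.99 on the early pregnant and 2.33 on the non-pregnant ovary array. The same ratio of the actin control was 2.56 and 3.38, and its value on the early pregnant ovary array was the lowest of all arrays. The part of these markers and of RNA quality in the result was not tested.

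The peak did not extend to late pregnancy for most of the genes. The late pregnant ovary array was lower than the early pregnant one by 2-fold or more for 7 of the 10 genes and higher for 0, where 2.71% of the 14775 probe sets measured were lower and 1.5% higher. These were SYNM (-1.82), CNN1 (-1.63), DES (-1.54), ACTG2 (-1.32), TPM2 (-1.24), TAGLN and MYLK, the last 2 between -1.13 and -1.11. The second ACTG2 probe set was at -0.33. All 10 ratios were below 0, with a median of -1.18 against -0.04 over all probe sets. Of 5 placental markers 5 were below 0 and 3 lower by 2-fold or more (median -1.27). Of 8 fibroblast and matrix markers 7 were below 0 and 2 lower (median -0.66). The 3′ over 5′ ratio of the actin control was 3.22 on the late and 2.56 on the early pregnant ovary array. That of the GAPDH control was 1.51 and 1.99. The part of these markers and of RNA quality in the result was not tested. Against the non-pregnant ovary array, the late pregnant one was higher by 2-fold or more for 1 gene, PDLIM3, and lower for 0 (2.92% higher and 3.65% lower of all 15039 probe sets). The median there was -0.01, against -0.06 over all probe sets. CNN1 and ACTG2 had ratios of 0.04 and 0.01, under the median gap of 0.27 between probe sets of 1 gene. Both ratios to the early pregnant ovary array share that single array, so they are not independent of each other.

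The scaling of the arrays moved the comparisons with the non-pregnant ovary array. Centring each array on its median turned the calls over all probe sets for late over non-pregnant ovary to 635 higher and 394 lower, against 439 and 549 as deposited. The hybridisation controls, added in equal amounts before hybridisation, stood 0.46 above their mean on that array on the log2 scale, and between -0.21 and 0.07 on the other 5. Scaled on these controls, the median ratio of all probe sets moved by 0.37 for early and by 0.50 for late pregnant over non-pregnant ovary. The calls over all probe sets then became 1125 higher and 89 lower for early over non-pregnant ovary, against 373 and 327 as deposited. For late over non-pregnant ovary they became 1595 and 134. The median of the 10 genes moved with them, to 1.74 for early and 0.51 for late over non-pregnant, while the medians of all probe sets became 0.35 and 0.44.

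**Figure D2:**
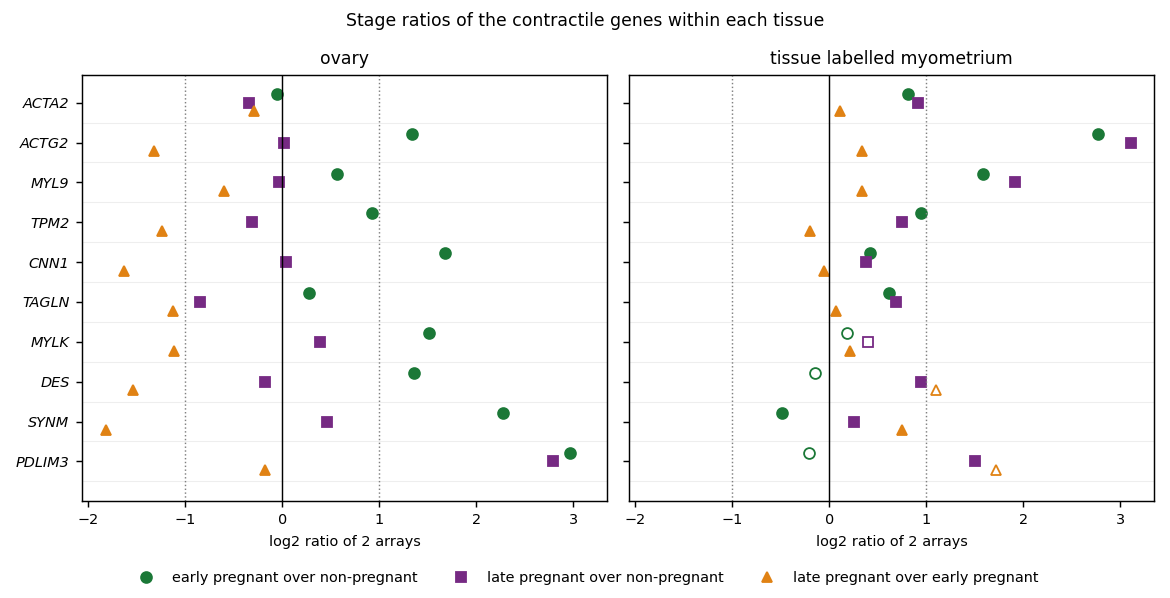
Log2 ratio between stages of each gene's brightest probe set, in ovary (left) and tissue labelled myometrium (right). An open marker is a bound, with 1 array under the floor. In ovary the early over non-pregnant ratios are mostly above 0 and the late over early ratios all below it. In the tissue labelled myometrium ACTG2 and MYL9 have the highest measured ratios to the non-pregnant array, while those of MYLK are lower bounds.

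In the tissue labelled myometrium, the early pregnant array was higher than the non-pregnant one by 2-fold or more for ACTG2 and MYL9 and lower for 0 of the 10 genes. This is 2 of 10, beside 8.76% of the 15836 probe sets measured that were higher and 10.3% that were lower. In late pregnancy against non-pregnancy 3 of the 10 were higher (ACTG2, MYL9 and PDLIM3) and 0 lower, beside 10.9% higher and 12.6% lower of 16013. MYLK was at least 1.14-fold higher in early and at least 1.32-fold higher in late pregnancy, its non-pregnant array being under the floor. Whether it passed 2-fold is not settled, so both counts of higher genes are minimum counts. By their second probe sets, TPM2 was 2.26-fold higher in early and ACTG2 1.59-fold higher in late pregnancy. All 10 ratios were above 0 for late over non-pregnant. Their median was at least 0.83, against -0.14 over all probe sets, and for early over non-pregnant it was at least 0.52, against -0.17. For late over non-pregnant, the measured ratios just under 2-fold were those of DES at 0.95 and ACTA2 at 0.92. Centred on the array medians, both passed 2-fold and the count became 5. Late over early pregnant gave 2 genes higher and 0 lower (5.87% and 5.62% of 15537), DES at least 2.14-fold and PDLIM3 at least 3.29-fold. Both are bounds against an array under the floor, and with a floor at the 60th percentile the count was 0. Endothelial markers were also higher in late than in non-pregnant sows in this tissue, 4 of 9 at 2-fold or more with a median of 0.99. The placental markers had a median of 4.83, with 4 of 6 at 2-fold or more. Of 7 leukocyte markers 1 was higher and 4 were lower (median -1.22). The 3′ over 5′ ratio of the actin control was 3.49, 2.64 and 2.76 on the non-pregnant, early and late pregnant myometrium arrays. That of the GAPDH control was 1.52, 1.70 and 1.53. The part of these cells and of RNA quality in the result was not tested.

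Whether a stage change was shared by the tissues was asked with limma, by an additive model of tissue and stage over all 6 arrays. It leaves 2 residual degrees of freedom, and stage effects that differ by tissue enter its residual together with noise. By limma with Benjamini-Hochberg adjustment, 0 of the 10 genes passed the threshold of 0.05 in each of the 3 stage comparisons. So did 0 of the 15882 probe sets tested (0%). At an unadjusted p under 0.05 there were 2 genes in early minus non-pregnant, ACTG2 (2.05 ± 0.69, SE) and TPM2 (0.93 ± 0.34), with adjusted p of at least 0.822. There was 1 in late minus non-pregnant, PDLIM3 (2.15 ± 0.75, adjusted p at least 0.711), and 0 in late minus early. Over all probe sets, 686, 964 and 261 had an unadjusted p under 0.05 in these 3 comparisons. The medians of the 10 genes were 0.91, 0.37 and -0.47, against -0.09, -0.10 and -0.01 over all probe sets.

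The stage ratios differed between tissues in a way that could not be tested, since each is a difference of 4 single arrays. Each gene was again taken by its brightest probe set. For late over early pregnant, the ovary log2 ratio minus the myometrium log2 ratio was below 0 for all 10 genes. It ran from -2.63 (at most, for DES) to -0.40, with a median of at most -1.46. The second ACTG2 probe set went the other way in this comparison, at 0.49 against -1.66 for the brightest. For late over non-pregnant it was below 0 for 8 genes, with a median of at most -1.09. For early over non-pregnant 4 genes, PDLIM3, SYNM, DES and CNN1, were above 0, and 5, ACTA2, ACTG2, MYL9, TPM2 and TAGLN, were below, TPM2 at -0.02. For MYLK the sign was not settled, since its non-pregnant myometrium array was under the floor and its difference is at most 1.32. The values for late over early share their arrays with the others.

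Between tissues, the question was whether genes of smooth muscle differ between ovary and the tissue labelled myometrium. The fitted difference, ovary minus myometrium, was above 0 for all 10 genes, between 0.68 and 2.10 on the log2 scale with a median of 0.97, against 0.01 over all 15882 probe sets. By limma, however, 0 of the 10 passed the adjusted threshold of 0.05, where 2.84% of all probe sets passed as higher in ovary and 2.23% as lower. At an unadjusted p under 0.05 the count was 5 of 10, beside 3471 of the 15882 probe sets. On simulated data with 200 shifted probe sets, the fit recovered 0% of log2 differences of 1 and of 2. More than 200 probe sets passed in the real data, where the adjustment is then less strict. Some differences within the range of these genes did pass there, such as PDLIM5 at 1.49 and CFL2 at 1.61. The simulation thus does not give the share that the real fit would miss, and a missed threshold does not show that the tissues were alike. The lowest adjusted p was that of TPM2 (1.17 ± 0.28, SE, adjusted p = 0.0770), followed by ACTA2 (0.92 ± 0.25, adjusted p = 0.112), PDLIM3 (2.10 ± 0.61, adjusted p = 0.126), TAGLN (1.01 ± 0.32, adjusted p = 0.151) and MYLK (1.06 ± 0.34, adjusted p = 0.152). For the other 5, DES, CNN1, MYL9, ACTG2 and SYNM, the adjusted p was 0.247 to 0.543. The second TPM2 probe set passed, at 1.54 ± 0.29 and an adjusted p of 0.0463, as 1 of the 13 probe sets tested. It passed in 4 of 15 alternatives, with adjusted p of 0.0421 to 0.354. The second ACTG2 probe set had 1.46 ± 0.35 with an adjusted p of 0.0788. For 5 of the 10 genes, ACTA2, TPM2, CNN1, TAGLN and MYLK, all 3 ovary arrays lay above all 3 myometrium arrays, as they did for 14.6% of all probe sets. All 3 lay below for 0 of the 10 genes (12.8%). The summed signal of 5 pericyte markers was 10597.5 to 14017 in ovary and 4899 to 6365 in the tissue labelled myometrium, and that of 10 endothelial markers 5762 to 6820.3 in ovary and 3744 to 6767 in the tissue labelled myometrium. By limma 0 of the 5 pericyte and 0 of the 9 tested endothelial markers passed (3 and 1 at an unadjusted p under 0.05), and their part in the tissue difference was not tested.

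The ratio between tissues was also taken at each stage, without a test. In non-pregnant sows 6 of the 10 genes were higher in ovary by 2-fold or more and 0 lower (8.74% and 8.67% of 15992 probe sets), and the median log2 ratio was at least 1.31. Scaled on hybridisation controls, 4 were higher and 0 lower, beside 635 higher and 3845 lower over all probe sets, against 1397 and 1387 as deposited. As deposited, ACTG2 was 4.56-fold, MYL9 3.59-fold, TAGLN 3.11-fold and ACTA2 3.09-fold higher, and TPM2 and DES also passed. MYLK was at least 1.54-fold higher, so whether it passed is not settled. In early pregnancy 7 were higher and 0 lower (12.4% and 10.6% of 15735), with a median of 1.66. PDLIM3 was at least 13.9-fold, DES at least 6.04-fold, SYNM 5.51-fold, MYLK 3.86-fold and CNN1 3.50-fold higher, and TPM2 and TAGLN also passed. In late pregnancy only PDLIM3 was higher by 2-fold or more (log2 ratio 1.89) and 0 were lower (12% and 12.6% of 15645). The median was 0.16, and ACTG2 had a ratio of -0.90, or 1.30 by its second probe set. Without either non-pregnant array the fitted difference of ACTG2 was -0.07, and without either early pregnant array that of SYNM was -0.21. Without either early pregnant array PDLIM3 was at 1.25 and DES at 0.53. Without either non-pregnant array PDLIM3 was at 2.84, and without either late pregnant array DES was at 1.84 and ACTG2 at 1.47.

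**Figure D3:**
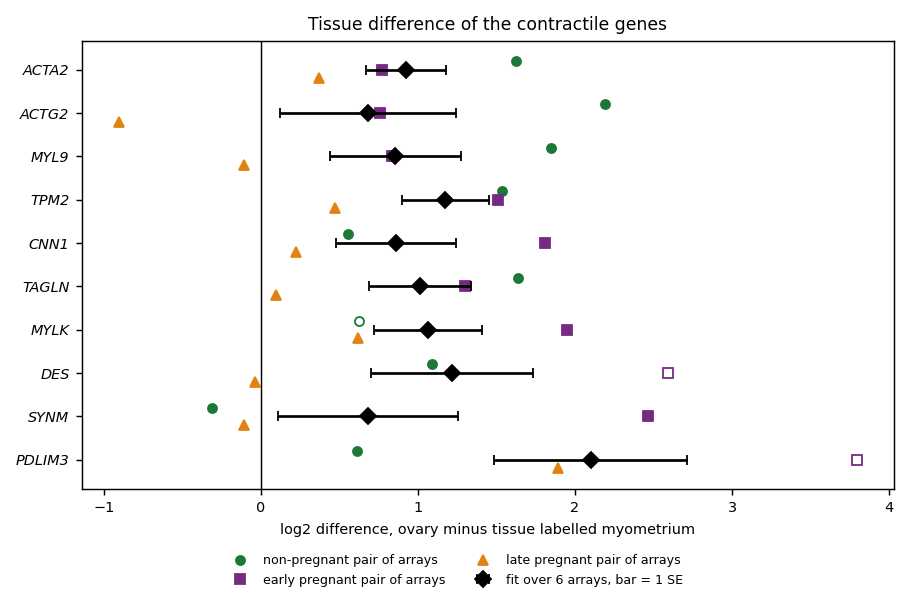
Log2 difference, ovary minus tissue labelled myometrium, of each gene's brightest probe set. Coloured markers are the 3 pairs of arrays of 1 stage (open where the myometrium array was under the floor), and the diamond with its bar is the additive fit with 1 SE; the late pregnant pair lies nearest to 0 or below it for most genes.

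**Figure D4:**
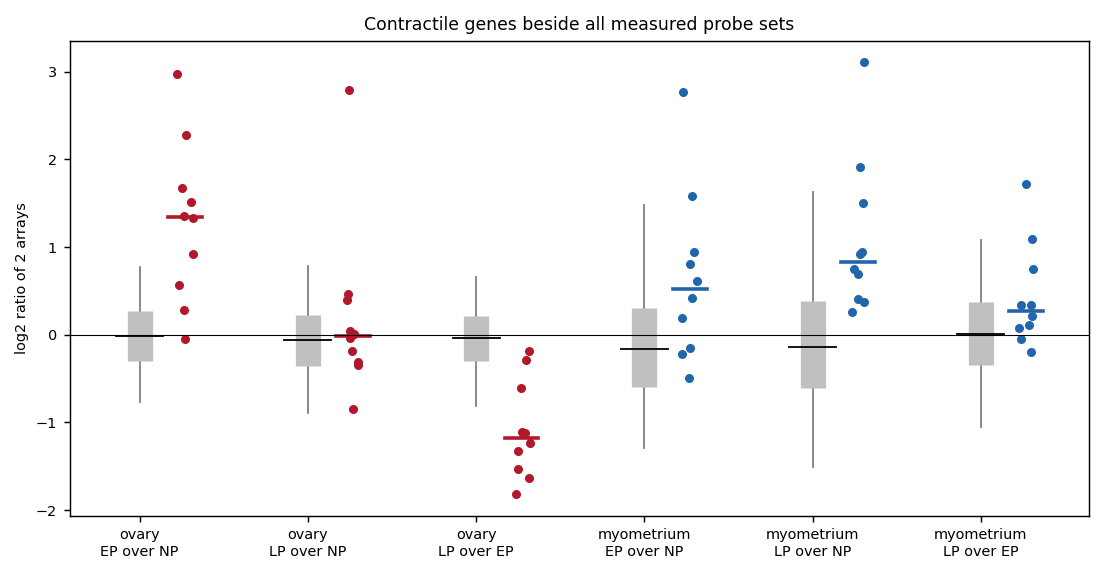
Log2 ratios of the 10 genes (points) beside the 5th, 25th, 50th, 75th and 95th percentiles of all measured probe sets, for the 6 stage comparisons. Of the 10 genes, 9 lie above the median of all probe sets for early over non-pregnant ovary, ACTA2 being the exception, and all 10 below it for late over early pregnant ovary.

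The wider contractile apparatus was described with 5 lists, each gene by its brightest probe set. Between tissues the median of 11 tested myosin and phosphatase genes was 0.06, with 0 past the threshold and 1 at an unadjusted p under 0.05. PPP1R14A, the inhibitor of myosin phosphatase, had the widest range of that list, with 111, 169 and 179 in ovary and 261, 422 and 274.5 in the tissue labelled myometrium (-1.06 ± 0.30, adjusted p = 0.121). Its signal was higher in the tissue labelled myometrium at every stage. Of 15 thin filament and crosslinker genes, 2 passed and both were higher in ovary, by limma. They were TMOD1, a tropomodulin that caps the pointed end of actin filaments (2.21 ± 0.30, adjusted p = 0.0200), and the muscle cofilin CFL2 (1.61 ± 0.28, adjusted p = 0.0356). CFL2 gave 3105, 2865 and 3486 in ovary and 1099, 1326 and 744 in the tissue labelled myometrium, with no early pregnant peak. CALD1, caldesmon, which blocks myosin from actin, gave 11903, 15618 and 9694 in ovary and 6420.4, 7762 and 7261 in the tissue labelled myometrium. All 3 ovary arrays were above the others and the early pregnant ovary array was the highest, as for CNN1, but its adjusted p was 0.0751.

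Of 20 adhesion plaque, Z-line and intermediate filament genes, 2 passed and both were higher in ovary. They were the LIM proteins FHL1 (2.20 ± 0.26, adjusted p = 0.0155) and PDLIM5 (1.49 ± 0.19, adjusted p = 0.0182). PDLIM5, from the same family as PDLIM3, gave 2624, 4580 and 5276 in ovary and 864, 1612 and 2045 in the tissue labelled myometrium. Like PDLIM3 it was higher on both pregnant ovary arrays than on the non-pregnant one. CRYAB, a small heat shock protein that binds desmin, gave 166, 367 and 167 in ovary and 543, 1894 and 4403 in the tissue labelled myometrium. It was higher in the tissue labelled myometrium at every stage (-2.93 ± 0.60, adjusted p = 0.0548), where DES was not. For late over early pregnant ovary 18 of these 20 genes were below 0, with a median of -0.46, though only CRYAB reached 2-fold.

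Of 9 tested regulators of the smooth muscle programme, 0 passed by limma (2 at an unadjusted p under 0.05, median 0.16). MYOCD, the coactivator that drives these genes with SRF, was near the floor, with 112, 94.4 and 75.3 in ovary and 92.8, 59.2 and 46.2 in the tissue labelled myometrium. It had no peak on the early pregnant ovary array, and it was named after its values were seen. KLF4, a repressor of the programme, gave 249.5, 496 and 424 in ovary and 487, 1549.7 and 579 in the tissue labelled myometrium. Of 12 tested uterine contraction receptors, channels and gap junction genes, 1 passed. It was PTGFR, the prostaglandin F receptor, higher in ovary (3.38 ± 0.40, adjusted p = 0.0152). PTGFR gave 6982, 14853 and 16721 in ovary and 336, 1319.9 and 3436 in the tissue labelled myometrium. Phospholamban, PLN, which restrains the calcium pump of the reticulum, gave 1708, 2329 and 1063 in ovary and 276, 359 and 615.5 in the tissue labelled myometrium. The probe set of the oxytocin receptor OXTR, also named after its values were seen, was under the floor on all 6 arrays.

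**Figure D5:**
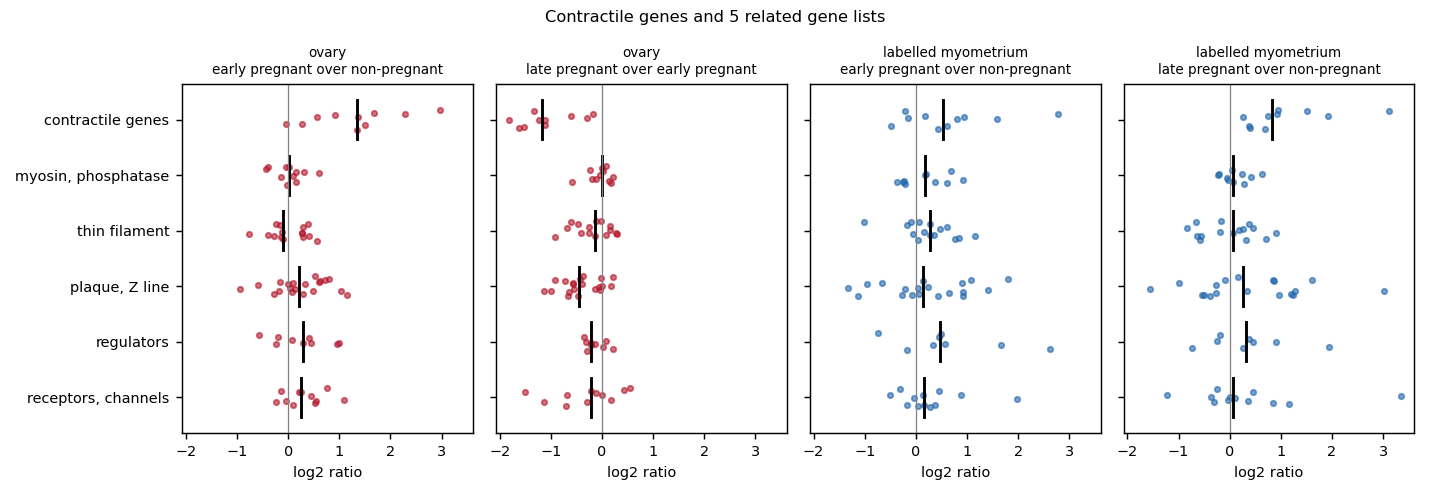
Log2 ratios of the 10 genes and of the measured genes of the 5 wider lists (points), with the median of each list (bar). The panels are early over non-pregnant ovary, late over early pregnant ovary, and early and late over non-pregnant myometrium. For early over non-pregnant ovary the 10 genes had a median of 1.35, and the 5 lists lay between -0.11 and 0.28.

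Among 2365 genes above the floor on all arrays with a log2 range of at least 1, the profile most like the mean of the 10 was that of LMCD1, which encodes a LIM and cysteine-rich domain protein. LMCD1 gave 863, 2501 and 987 in ovary and 394.5, 527.5 and 799 in the tissue labelled myometrium, with a Pearson's r of 0.99 over the 6 arrays. ARID4A (0.98), GLB1L (0.97), PEF1 (0.97) and HTRA4 (0.95) came next. For ACTA2 alone, which lacked the early pregnant peak in ovary, the most alike were CLDN5 (0.99), SCARB2 (0.98), GJA5 (0.97), MAOB (0.97) and IGF1R (0.97). CLDN5, a claudin of endothelial tight junctions, gave 772, 877 and 634 in ovary and 132, 348 and 444 in the tissue labelled myometrium. With so many genes and only 6 arrays, high values of r are found by selection, and these are descriptions.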

How the data were processed

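The deposited values are linear intensity values; per the submitters' processing notes the authors computed them with MAS5, of which the version and settings are not given here. Of 24123 probe sets, 124 controls were left out. The platform annotation gives 10069 of the others 1 symbol, 198 several and 13732 none, and only those with 1 were named; checking 9961 by gene identifier changed 0. Before taking log2, signals under 81.7 were set to that floor, and each gene was represented by its brightest probe set. Ratios of 2 arrays were counted at 2-fold, without a test, among probe sets that exceeded the floor on either array.

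Tissue and stage were fitted together with limma 3.58.1 (R 4.3.3), with an intensity trend and Benjamini-Hochberg adjustment over 15882 probe sets that exceeded it on 2 or more arrays, at 0.05. The fit was tested on simulated data with 200 shifted probe sets, fewer than passed between tissues in the real data. It recovered 83% of log2 differences of 4 and 0% of those of 1 and of 2. Arrays of a tissue are different stages, so p-values measure agreement between arrays, not animals, and the number of arrays limits every precision. Tables and plots used Python 3.11.15.

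Named genes were all 10 members, from each wider list up to 5 above the floor on all arrays with the widest log2 range plus any past a threshold, and the 5 genes most like the mean of the 10 and ACTA2. MYOCD and OXTR fall outside that rule and were named after their values were seen. The members and lists were chosen with earlier results of these data known. Alternatives were floors at 33.7 and 246.2, log2(signal + 16), quantile normalization, centring on the median, the mean of probe sets, no filter, no trend, no stage block, 1.5-fold, and leaving out arrays. Scaling on 27 hybridisation control probe sets was chosen after seeing the data. No gene positions were analysed here.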

Additional observations from a re-analysis of the deposited data

Results flagged for a closer look

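Of the 10 genes, TAGLN, DES and SYNM had stage ratios of opposite sign in the 2 tissues, each by 1.5-fold or more. These differences were not tested, since each is made of 4 single arrays.

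TAGLN had a log2 ratio of late over non-pregnant of -0.85 in ovary and 0.69 in the tissue labelled myometrium, a difference of -1.54. DES had a late over early pregnant ratio of -1.54 in ovary and of at least 1.10 in the tissue labelled myometrium, where the early pregnant array was under the floor, a difference of at least 2.63 in size (-2.63). SYNM had -1.82 in ovary and 0.75 in the tissue labelled myometrium for the same stages, a difference of -2.57.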

How the results depend on the processing

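By limma, 0 member genes passed in the tissue and in the stage comparisons under every alternative except an unadjusted p under 0.05, which gave 5 higher in ovary, 2 higher in early than in non-pregnant sows and 1 higher in late than in non-pregnant sows. Scaled on hybridisation controls, the fitted tissue difference was lower for every member gene. It ran from 0.37 for ACTG2 to 1.83 for PDLIM3, against 0.68 and 2.10 for these genes as deposited. Leaving out 1 array at a time moved the median tissue difference between 0.76 and 1.40. The difference of ACTG2 ranged from -0.07 to 1.47 and turned to -0.074 without either non-pregnant array, and that of SYNM ranged from -0.21 to 1.18 and turned to -0.21 without either early pregnant array. Leaving out either array of a stage gives the same difference, as the other then no longer bears on it. At 1.5-fold in place of 2-fold, 1 gene was lower for late over non-pregnant ovary, beside 1890 of 15039 probe sets. For early and late over non-pregnant myometrium 5 and 7 were higher, beside 2607 of 15836 and 3007 of 16013. MYLK was not among them, being a bound in both. In late pregnancy 2 were higher and 1 lower in ovary than in the tissue labelled myometrium, beside 3615 and 3411 of 15645. For late over non-pregnant myometrium, centring on the median gave 5 higher. For late over early pregnant myometrium, a floor at the 60th percentile gave 0 higher and the mean of probe sets 1. Scaling on hybridisation controls gave 1 lower in ovary in late pregnancy. Of 96 counts of stage ratios under alternatives, 90 stayed within 1.5 times, and so did 45 of 48 counts of tissue ratios. Centring on the median moved the calls over all probe sets to 324 higher and 303 lower for late over early pregnant ovary, against 221 and 400. For late over non-pregnant and late over early pregnant ovary it moved the medians of all probe sets by 0.14 and 0.12. Scaling on hybridisation controls moved the calls for ovary over myometrium in early pregnancy to 1483 higher and 2171 lower, against 1944 and 1671. In non-pregnant and early pregnant sows the medians of all probe sets moved by -0.53 and -0.18. For late over early pregnant ovary it gave 326 and 287. The causes were not tested. Pairing by replicate number was not possible because the labels give none; the tissues were compared within stage, and without the stage block 0 genes passed as well. Signals near the floor limit MYLK, DES, SYNM and PDLIM3.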
